A study of Mus musculus with 11 samples.

Results

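The miR-15/16 family is a group of related microRNAs (miRNAs) that share the seed, the bases near the 5′ end through which a miRNA pairs with its target mRNAs. Members were taken from the small RNA tables by name, as every mature form with the stem miR-15a, miR-15b, miR-16, miR-195a or miR-497a on either arm of the hairpin. This gave 11 of the 1096 miRNAs listed, of which 5 were 5p forms, cut from the 5′ side of the hairpin, and 6 were 3p forms, cut from the 3′ side. All 11 had at least 1 read in each library.

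Mature miRNAs are made in steps. Drosha cuts the hairpin out of a long primary transcript, Dicer removes the loop to leave a short duplex of a 5p and a 3p strand, and an Argonaute protein keeps 1 of the strands, which guides it to target mRNAs. The miR-15/16 family is known for holding back the cell cycle through mRNAs of cyclins and cyclin-dependent kinases, and for targeting the mRNA of the survival factor Bcl2. miR-16-5p is abundant in most tissues and has served as a reference miRNA in PCR assays.

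The study asked how the RNA helicase MOV10 affects the RNAs of mouse spermatogonial progenitor cells (SPCs), the cells of the testis that proliferate in culture and keep stem cell activity. SPCs were derived from Thy1-positive testis cells and grown on mitotically inactivated STO feeder cells, a mouse fibroblast line. Control SPCs had received a lentiviral control vector (shVector) and knockdown SPCs a lentiviral short hairpin RNA against Mov10, and 1 small RNA library was held for each group. Both libraries carried the strain label C57BL/6, the tissue label testis and an age label of postnatal day 6, while the methods take the cultured SPCs from B6;129S-Gt(Rosa)26Sor/J mice. The methods speak of triplicate samples behind the libraries but do not say whether RNA was pooled, so each difference between the libraries has no replicate check. Mov10 is a messenger RNA and its level was not analysed here, so the knockdown itself could not be checked in these tables.

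The control library held 9628835 miRNA reads and the knockdown library 2794593. Levels are the deposited TPM values, reads per 1000000 of a library total. These totals were 10518277 and 3194363 reads, so that 1 read was worth 0.0951 TPM in control SPCs and 0.313 TPM in knockdown SPCs. A form without reads could have been present at up to 0.285 TPM in control SPCs and 0.939 TPM in knockdown SPCs, the level of 3 reads. Reads carried no molecular identifiers, so these limits and all intervals cover counting error only.

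The labelled cell type was checked with miRNAs known from germ and pluripotent cells, the stems miR-290a, miR-291a, miR-291b, miR-292a, miR-293, miR-294 and miR-295 of one cluster, miR-302a to miR-302d of another, and miR-183, miR-96 and miR-182. Of these stems 22 forms were listed, with a summed level of 155223 TPM in control SPCs and 111855 TPM in knockdown SPCs. Of these forms 17 fell and 0 rose by the exact binomial test explained with the family counts. By that test 235 of 1096 miRNAs in all fell (21.4%) and 117 rose (10.7%). The most abundant of the 22 forms was miR-182-5p, at 142065 TPM in control SPCs and 103395 TPM in knockdown SPCs. Of the stems miR-290a to miR-295, miR-292a-5p was the most abundant form, at 753 and 476 TPM, and miR-295-3p stood at 511 and 368 TPM. Log2 ratios of these stems, knockdown over control, ran from -2.97 for miR-290a-3p (33 and 1 reads) to 0.04 for miR-294-5p (32 and 10 reads). The miR-302 forms were nearly absent, with miR-302b-3p at 1 and 0 reads and miR-302d-3p at 2 and 0 reads.

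miRNAs of fibroblasts were also abundant. The 13 listed forms of miR-199a, miR-199b, miR-214, miR-143, miR-145a and miR-218 summed to 28053 TPM in control SPCs and 32862 TPM in knockdown SPCs. Of these forms 7 rose and 1 fell, beside 10.7% and 21.4% of all miRNAs. The form that fell, miR-214-3p, stood at 423 and 316 TPM. The most abundant fibroblast form, miR-143-3p, stood at 18362 and 20113 TPM. The 10 listed forms of the blood and erythroid list summed to 2221 and 1000.2 TPM, led by miR-486a-5p at 2041 and 962 TPM. Of these 10 forms 3 fell and 0 rose, beside the same 21.4% and 10.7%. The erythroid miR-451a had 11 reads and 1 read. Muscle forms were near the floor, with 4 forms summing to 3.90 and 3.76 TPM. The 6 forms of the neuron list summed to 590 and 332 TPM, of which miR-128-3p gave 454 and 234 TPM. Of these 6 forms 2 fell and 1 rose, beside the same shares of all miRNAs. The form that rose, miR-9-5p, stood at 51.9 and 77.6 TPM. On the deposited scale the summed germ cell, blood and neuron lists were thus lower and the fibroblast list higher in the knockdown library. The list sums were not recomputed under other scalings, and their part in the differences described for the family was not tested. In these bulk libraries fewer cells of a type and less RNA per cell cannot be told apart.

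The sequences show what defines the family. RefSeq miRNA sequences on GRCm38.p6 were matched by name for 11 of 11 members and for 908 of the 1096 miRNAs. The 5p forms are printed 5′ to 3′ with the seed, bases 2 to 8, in capitals.
miR-16-5p: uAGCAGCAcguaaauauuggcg
miR-195a-5p: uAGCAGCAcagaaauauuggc
miR-15a-5p: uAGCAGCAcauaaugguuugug
miR-15b-5p: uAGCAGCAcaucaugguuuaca
miR-497a-5p: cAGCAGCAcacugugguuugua
All 5 carried the same 7-base seed and differed in the bases after it. Against miR-16-5p, counted from 1 at the 5′ end and without gaps, miR-195a-5p differed at 2 of 21 positions (G10A and U11G). miR-15a-5p differed at 6 of 22 positions, miR-15b-5p at 8 of 22 and miR-497a-5p at 11 of 22. The reads had been mapped to miRBase without mismatches, so a read that reached past base 11 could not be given to both miR-16-5p and miR-195a-5p.

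The 3p forms share no seed with the 5p forms or with each other. They are printed because they tell the loci apart.
miR-16-1-3p: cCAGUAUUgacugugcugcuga
miR-16-2-3p: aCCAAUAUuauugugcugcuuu
miR-195a-3p: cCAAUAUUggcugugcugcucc
miR-15a-3p: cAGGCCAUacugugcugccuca
miR-15b-3p: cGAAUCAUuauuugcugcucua
miR-497a-3p: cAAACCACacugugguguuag
None of these 6 seeds was found in another of the 908 miRNAs with a sequence.

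The members come from 6 hairpins in 3 loci of 2 hairpins each. Mir15b (chr3:69009772-69009835) and Mir16-2 (chr3:69009902-69009996) lie 66 bases apart on the plus strand, both in an intron of Smc4 in the 5 transcripts that cover them, intron 5 in 4 of them. Smc4 encodes a subunit of condensin, the complex that compacts chromosomes in mitosis. Mir16-1 (chr14:61631880-61631972) and the mature forms of Mir15a (chr14:61632038-61632096) lie on the minus strand in introns of the noncoding RNA gene Dleu2 in 8 of its transcripts, and a further single-exon Dleu2 transcript overlapped Mir16-1. Mir497 (chr11:70234717-70234800) and Mir195a (chr11:70235042-70235135) lie 241 bases apart on the plus strand of chromosome 11, and no host gene other than miRNA genes was annotated over them in GENCODE vM21. The 22 bases of miR-16-5p are the same at Mir16-1 and Mir16-2, so its reads cannot be assigned to Dleu2 or Smc4. The other 10 members each come from 1 hairpin.

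Summed over its members, the family was lower in the knockdown library. Its 11 members held 141296 reads in control SPCs and 30688 in knockdown SPCs, or 13433 and 9607 TPM. This was 1.47% (95% Wilson interval 1.46% to 1.48%) of the control's miRNA reads and 1.10% (1.09% to 1.11%) of the knockdown's. The log2 ratio of the summed TPM, knockdown over control, was -0.48 (95% exact interval -0.50 to -0.47). miR-16-5p alone held 86.3% of the family's reads in control SPCs and 85.8% in knockdown SPCs. Without it, the other 10 members summed to 1847 and 1367 TPM, a log2 ratio of -0.43. This was not spread evenly over the loci. The forms of Mir195a and Mir497 held 1024 and 587 TPM of these sums, a log2 ratio of -0.80. Those of Mir15a and Mir16-1 gave 0.04 and those of Mir15b and Mir16-2 gave -0.13. The 5p forms together gave -0.49 and the 3p forms -0.19 (-0.33 to -0.06), though the 3p sum turned above zero, to 0.0602, 0.0263 and 0.0889, when scaled by the median ratio, TMM factors or DESeq2 size factors.

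Most of the better measured miRNAs were lower in the knockdown library on this scale. Of the 607 miRNAs with over 1.5 TPM in at least 1 library the median log2 ratio was -0.37, and that of the 10 members above it was -0.36. The family sum lay -0.12 from the median of all miRNAs, though this sets a sum weighted by reads beside an unweighted median. Relative to the summed miRNA reads the family sum was at -0.42. Scaling to the median ratio of miRNAs above the minimum in both libraries, by TMM factors or by DESeq2 size factors gave the family sum as -0.23, -0.27 and -0.20, with the median of all these miRNAs at -0.12, -0.15 and -0.09. With raw reads and 1 common total the family sum was -2.20 and that median -2.0. The direction of the family sum held under each of these scalings, and its distance from zero did not.

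Single members were counted by a fold and by a test. Past 1.5-fold on TPM with 0.1 added, 4 of the 10 members above 1.5 TPM were reduced (miR-15a-3p, miR-15b-3p, miR-195a-5p and miR-497a-5p), beside 252 of 607 miRNAs in all (41.5%), and 0 were raised, beside 96 of 607 (15.8%). The reduced share of the family was thus near that of all miRNAs. Among the reduced members miR-15a-3p rested on 44 and 6 reads, and miR-15b-3p, 1.51-fold lower, was just past the limit. The number above the minimum differs between scalings. With DESeq2 size factors 2 members were reduced (miR-15a-3p and miR-497a-5p), beside 173 of 591 miRNAs (29.3%), with 150 raised (25.4%). There miR-15a-3p did not pass the exact binomial test (adjusted p = 0.44). The median ratio gave 3 members, beside 191 of 607 miRNAs (31.5%), with 144 raised (23.7%). TMM gave 3 members, beside 192 of 591 miRNAs (32.5%), with 141 raised (23.9%). Raw reads with 1 common total gave 10 members, beside 561 of 581 miRNAs (96.6%), with 10 raised (1.72%). The raised miRNAs counted for these scalings included 0 members of the family. The binomial test compared each miRNA's reads with the totals of the libraries, with Benjamini-Hochberg adjustment over all 1096 miRNAs, and so compares these libraries and not the conditions. By this two-sided exact test at an adjusted p of 0.05, 4 of 11 members fell (miR-16-5p, miR-15b-3p, miR-195a-5p and miR-497a-5p), beside 235 of 1096 miRNAs (21.4%), and 0 rose, beside 117 of 1096 (10.7%). The test passes smaller differences at higher read counts, so these shares are not matched for depth.

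**Figure D1:**
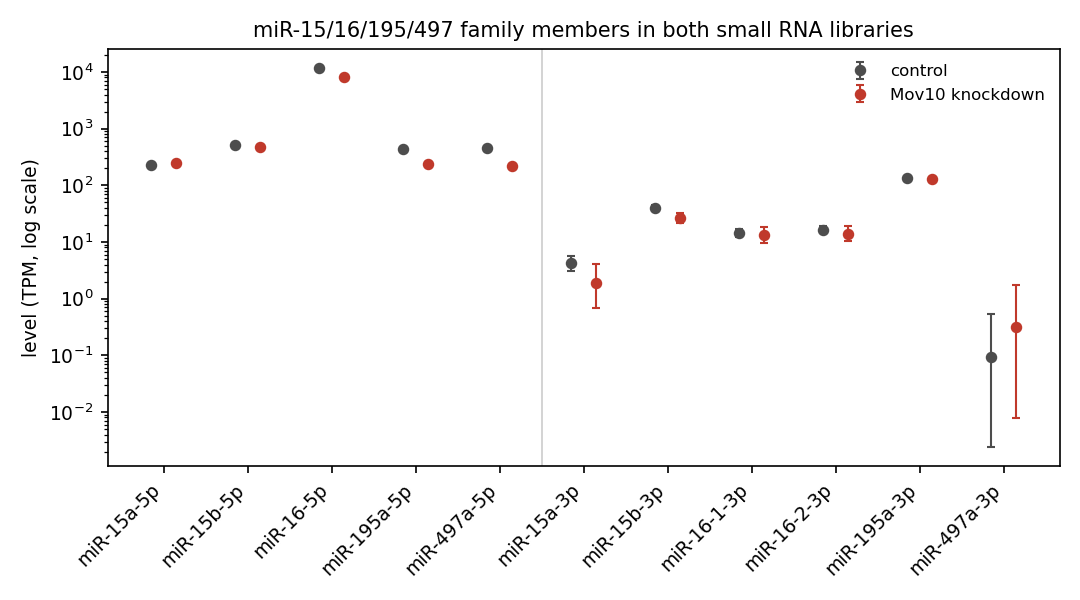
Level in TPM (log scale) of the 11 members in the control (grey) and Mov10 knockdown (red) libraries, 5p forms left of the line and 3p forms right of it, with exact 95% Poisson intervals of the read counts. miR-16-5p stands highest, at 11586 and 8240 TPM, and miR-497a-3p lowest, with 1 read in each library.

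miR-16-5p was the most abundant member by far and ranked 22 among all miRNAs in control SPCs and 27 in knockdown SPCs. It had 121868 reads in control SPCs and 26320 in knockdown SPCs, which is 11586 and 8240 TPM. The knockdown level was 1.41-fold lower, a log2 ratio of -0.49 (95% exact interval -0.51 to -0.47), inside the 1.5-fold limit but past the binomial test, with a p-value too small to be held in double precision. Relative to the median of all miRNAs the difference was -0.13, and relative to the summed miRNA reads it was -0.43. It stayed below zero under each scaling tried, from -0.21 with DESeq2 size factors to -2.21 with raw reads.

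On the deposited scale the 5p forms with a single origin in Dleu2 or Smc4 differed less than miR-16-5p. miR-15a-5p, from Dleu2, had 2446 and 778 reads, or 233 TPM in control SPCs and 244 TPM in knockdown SPCs. Its log2 ratio of 0.07 (-0.05 to 0.18) did not pass the exact binomial test (adjusted p = 0.52). miR-15b-5p, from Smc4, had 5419 and 1537 reads, or 515 and 481 TPM. Its log2 ratio was -0.10 (-0.18 to -0.02), which also missed the exact test after adjustment (adjusted p = 0.055). The order of these members was the same in both libraries, with miR-15b-5p above miR-15a-5p and counting intervals that did not overlap. Under the median ratio, TMM and DESeq2 scalings miR-15b-5p turned to 0.15, 0.12 and 0.18, and miR-15a-5p stood at 0.32, 0.28 and 0.35, and both then passed the test as higher. With raw reads and 1 common total they were at -1.82 and -1.65, so the side on which these members lie depends on the scaling.

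The 3p forms of these hairpins were much scarcer than the 5p forms. miR-15b-3p had 422 and 85 reads, or 40.1 TPM in control SPCs and 26.6 TPM in knockdown SPCs. It fell, with a log2 ratio of -0.59 (-0.95 to -0.25) and an adjusted p of 0.00166 by the exact binomial test, but not under the median ratio, TMM or DESeq2 scalings, where it was at -0.34, -0.37 and -0.31. miR-16-2-3p, of the same locus, had 174 and 45 reads, or 16.5 and 14.1 TPM, with a log2 ratio of -0.23 (-0.74 to 0.25). miR-16-1-3p, of Dleu2, had 153 and 43 reads, or 14.5 and 13.5 TPM, with a log2 ratio of -0.11 (-0.64 to 0.38). Neither of the miR-16 3p forms passed the test, and their intervals in either library overlapped each other. miR-15a-3p had 44 and 6 reads, or 4.18 and 1.88 TPM, and its log2 ratio of -1.11 had an interval from -2.68 to 0.08. A change of that form was not detectable at this depth.

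The clearest differences were in miR-497a-5p and miR-195a-5p, the 5p forms of the chromosome 11 pair. miR-497a-5p had 4813 reads in control SPCs and 704 in knockdown SPCs, or 458 and 220 TPM. Its log2 ratio was -1.05 (-1.17 to -0.94), 2.08-fold lower in the knockdown library, with an adjusted p of 7.52e-86 by the exact binomial test. miR-195a-5p had 4531 and 759 reads, or 431 and 238 TPM. Its log2 ratio was -0.86 (-0.97 to -0.75), 1.81-fold lower, with an adjusted p of 3.24e-58 by the same exact test. Both fell under every scaling tried, to between -0.77 and -2.77 for miR-497a-5p and between -0.58 and -2.58 for miR-195a-5p, and they lay -0.69 and -0.49 from the median of all miRNAs. With DESeq2 size factors miR-195a-5p, at -0.58, came inside the 1.5-fold limit. In the control both of these 5p forms stood close to miR-15b-5p, at ranks 98 and 102 beside 92, while in the knockdown they stood at ranks 138 and 130 beside 100.

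The 3p forms of this pair gave no call on the deposited scale. miR-195a-3p, the most abundant 3p form of the family, had 1425 and 410 reads, or 135 TPM in control SPCs and 128 TPM in knockdown SPCs. Its log2 ratio of -0.08 (-0.24 to 0.08) did not pass the exact binomial test (adjusted p = 0.65), and it turned to 0.17, 0.14 and 0.20 under the median ratio, TMM and DESeq2 scalings, past the test with the last of them. miR-497a-3p had 1 read in each library, which is under the floor of 3 reads, and no fold is given for it.

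**Figure D2:**
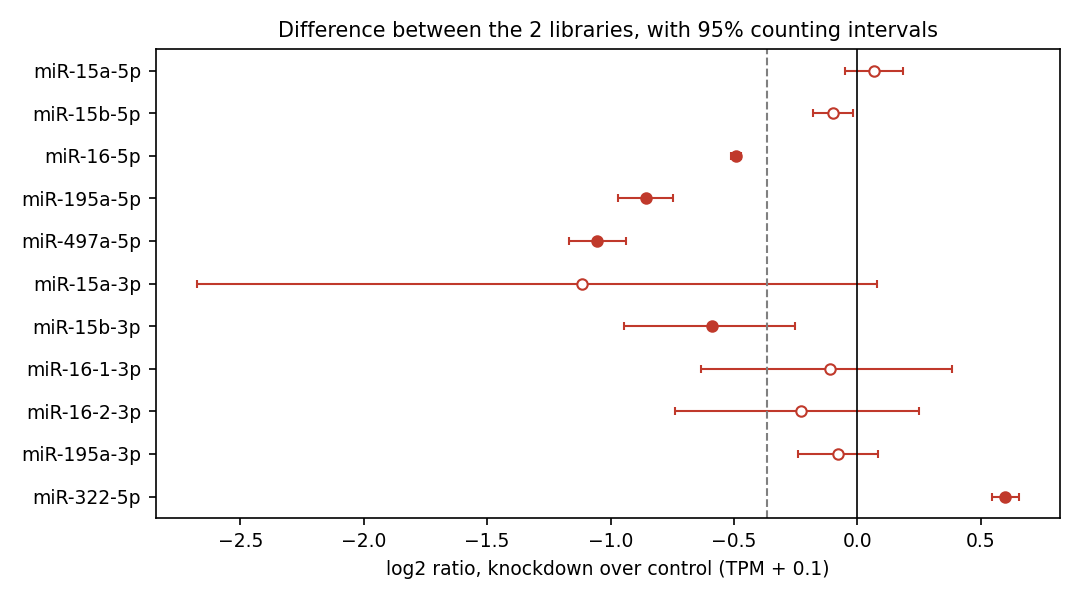
Log2 ratio of TPM with 0.1 added, knockdown over control, for the 10 members above 1.5 TPM and for miR-322-5p, with exact 95% intervals of the read ratio. Filled points passed the exact binomial test, and the dashed line is the median of 607 miRNAs at -0.37. miR-497a-5p, miR-195a-5p, miR-16-5p, miR-15a-3p and miR-15b-3p lie left of that line and miR-322-5p lies to the right at 0.60, while miR-15a-5p, miR-15b-5p, miR-16-1-3p, miR-16-2-3p, miR-195a-3p and miR-322-5p change side of zero under some scalings.

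The forms with a single origin were also summed by locus. Mir15a and Mir16-1 gave 251 TPM in control SPCs and 259 TPM in knockdown SPCs, a log2 ratio of 0.04 (-0.07 to 0.16), which became 0.30, 0.26 and 0.32 under the median ratio, TMM and DESeq2 scalings. Mir15b and Mir16-2 gave 572 and 522 TPM, a log2 ratio of -0.13 (-0.21 to -0.05), which turned to 0.12, 0.09 and 0.15 under the same scalings. Mir195a and Mir497 gave 1024 and 587 TPM, a log2 ratio of -0.80 (-0.88 to -0.73) that stayed between -0.52 and -2.52 under the other scalings. The chromosome 11 sum was below zero under each scaling tried, while with raw reads and 1 common total the sums of all 3 loci were below zero.

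Ratios between members within a library do not depend on its total. The ratio of miR-16-1-3p reads, from Dleu2, to miR-16-2-3p reads, from Smc4, was 0.879 in control SPCs and 0.956 in knockdown SPCs. It changed by a factor of 1.09 with an exact 95% interval from 0.659 to 1.79, so a shift between these mature forms was not detectable. Transcripts of the host genes were not analysed, so such ratios describe mature forms and not the hosts. The ratio of miR-15a-3p to miR-15b-3p, which rests on 6 reads of miR-15a-3p in knockdown SPCs, was 0.104 and 0.0706, a factor of 0.677 (0.229 to 1.67), on the other side of 1 with an interval that also held 1. The ratio of miR-15a-5p to miR-15b-5p was 0.451 and 0.506, a factor of 1.12 (1.01 to 1.24), an interval that lay just above 1.

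The 5p forms of chromosome 11 lost ground to both miR-15a-5p and miR-15b-5p. miR-195a-5p had 1.85 reads per read of miR-15a-5p in control SPCs and 0.976 in knockdown SPCs, a factor of 0.527 (0.47 to 0.59). It had 0.836 reads per read of miR-15b-5p in control SPCs and 0.494 in knockdown SPCs, a factor of 0.591 (0.536 to 0.65). For miR-497a-5p the values were 0.888 and 0.458, a factor of 0.516 (0.467 to 0.569), and against miR-15a-5p they were 1.97 and 0.905, a factor of 0.46 (0.41 to 0.516). The 3p form did not share this, as miR-195a-3p had 0.263 and 0.267 reads per read of miR-15b-5p, a factor of 1.01 (0.894 to 1.15). Between the chromosome 11 neighbours the ratio of miR-195a-5p to miR-497a-5p was 0.941 and 1.08, a factor of 1.15 (1.02 to 1.28), an interval that also lay just above 1. miR-16-5p lay between these 5p forms. It had 49.8 reads per read of miR-15a-5p in control SPCs and 33.8 in knockdown SPCs, a factor of 0.679 (0.625 to 0.738), and 22.5 and 17.1 per read of miR-15b-5p, a factor of 0.761 (0.718 to 0.808). Against miR-195a-5p it rose from 26.9 to 34.7, a factor of 1.29 (1.19 to 1.40). The reads of miR-16-5p thus did not keep a fixed ratio to those of either neighbour on its hairpin clusters.

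The share of 5p reads among the 5p and 3p reads of a hairpin stem is likewise free of the scaling. It was compared by a two-sided Fisher's exact test, with Benjamini-Hochberg adjustment over the 299 stems that had both arms listed and at least 20 reads. In all, 29 of 299 stems (9.7%) had a lower 5p share in the knockdown library and 32 (10.7%) a higher one, and the median absolute change was 2.12 percentage points. Of the 5 family stems, 1 was lower, 1 was higher and 3 did not pass.

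For miR-195a the 5p share was 76.1% (95% Wilson interval 75.0% to 77.1%) in control SPCs and 64.9% (62.1% to 67.6%) in knockdown SPCs. The ratio of 5p to 3p reads was 3.18 and 1.85. The log2 odds ratio was -0.78 (-0.98 to -0.58), with an adjusted p of 1.6e-13 by Fisher's exact test. The 5p strand thus lost share to the 3p strand cut from the same hairpin. For miR-15b the share was 92.8% and 94.8%, a log2 odds ratio of 0.49 (0.14 to 0.86) with an adjusted p of 0.0236 by the same exact test, so that here the 5p strand gained share. miR-15a had shares of 98.2% and 99.2% (adjusted p = 0.168, exact). miR-16, with both of its 3p forms summed, had 99.7% in each library (adjusted p = 0.234, exact). miR-497a was nearly all 5p, at 99.98% and 99.86%, with 1 read of the 3p form in each library.

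**Figure D3:**
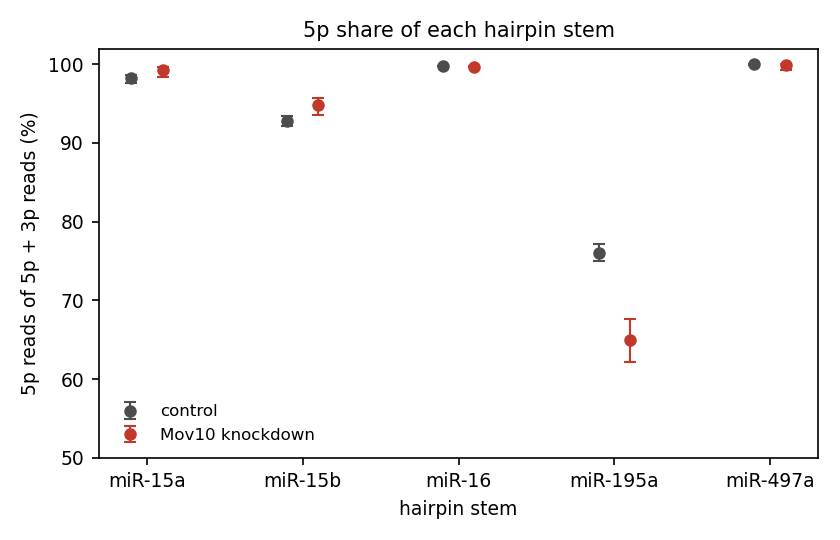
Share of 5p reads (%) among the 5p and 3p reads of each hairpin stem in the control (grey) and knockdown (red) libraries, with 95% Wilson intervals, on an axis that starts at 50%. miR-195a moves from 76.1% to 64.9%, and the other 4 stems stay above 92%.

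Among the 908 miRNAs with a sequence, the seed of miR-16-5p was found in 1 more, miR-322-5p of the X chromosome. It has the seed of the family under another name stem.
miR-322-5p: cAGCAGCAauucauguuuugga
It had 8516 reads in control SPCs and 3916 in knockdown SPCs, or 810 and 1226 TPM. It rose, with a log2 ratio of 0.60 (0.54 to 0.65) and an adjusted p of 8.96e-96 by the exact binomial test, and only raw reads with 1 common total put it below zero (-1.12). On the deposited scale none of the members by name rose, while by the same test 2 did under the median ratio and TMM scalings, 3 with DESeq2 size factors and 1 when the 10 most abundant miRNAs were left out of the totals. The shares of all miRNAs by this test are not given for these scalings, so these member counts are not set against them. Past 1.5-fold, 0 members were raised on the deposited scale and under these 4 scalings. The raised share of all miRNAs was 15.8% on the deposited scale. Under these 4 scalings, in the same order, it was 23.7%, 23.9%, 25.4% and 20.9%. miR-322-5p held more reads than any named member but miR-16-5p in both libraries. With it, the 6 miRNAs with this seed summed to 14032 and 10648 TPM, a log2 ratio of -0.40 (-0.42 to -0.38). The pool of reads with this seed thus held 1.53% of miRNA reads in control SPCs and 1.22% in knockdown SPCs.

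Forms of other groups went in either direction. By the exact binomial test 117 of 1096 miRNAs in all rose (10.7%) and 235 fell (21.4%). These shares are not matched for depth with the groups counted here. The cluster of miR-322 with miR-503, miR-351, miR-542 and miR-450 had 13 forms listed, of which 4 rose and 2 fell by that test. The median log2 ratio of the 11 above the minimum was 0.41. Its miR-503-5p was scarce, with 22 and 10 reads, or 2.09 and 3.13 TPM. The miR-17-92 cluster, which drives proliferation in many cells, was taken by its name stems. This gave 13 forms, among them miR-92a-2-5p (0 and 1 reads), which is named for a second miR-92a hairpin. Of the 13 forms 6 fell and 3 rose, with a median of -0.47 over 12 forms and a summed log2 ratio of -0.40. That sum was mostly miR-92a-3p, with 281125 of 303031 reads in control SPCs and 62937 of 69674 in knockdown SPCs. Its name carries no hairpin number, so these reads are not assigned to 1 of the miR-92a hairpins. The let-7 and miR-98 family had 23 forms, 14 that rose and 0 that fell, with a median of 0.62 over 22 forms. The family's own median of -0.36 lay between those of the miR-17-92 cluster and the cluster of miR-322, next to that of all miRNAs, and the differences between these groups were not tested.

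The 5 miRNAs outside the family with levels nearest to miR-16-5p in both libraries, by Euclidean distance of log2(TPM + 0.1) over the 2 libraries, were miR-871-5p (0.201), miR-183-5p (0.288), miR-881-3p (0.480), miR-148a-3p (0.513) and miR-99b-5p (0.519). The nearest, miR-871-5p, stood at 12510 and 9259 TPM. miR-183-5p, one of the germ cell markers, stood at 10604 and 6889 TPM. Of the 5, miR-99b-5p was the one that was higher in the knockdown, at 10109 and 11497 TPM.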

How the data were processed

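Small RNA was sequenced from 1 control and 1 Mov10 knockdown library. Per the study's methods the authors trimmed adaptors, removed rRNA reads and mapped the rest to miRBase without mismatches. The authors deposited, for each mature miRNA, a read count and a TPM value, which is the count per 1000000 of a library total that exceeds the summed miRNA counts. The submitters' processing notes name Cufflinks 2.1.1, whose role for these tables is not given in the sources used here. The deposited counts were tested and the deposited TPM described. Log2 ratios used TPM + 0.1, and a fold was called past 1.5 with over 1.5 TPM in the higher library. Intervals were Clopper-Pearson for read ratios, Wilson for shares, Poisson for levels and exact conditional for odds ratios, at 95%. Named were all members, miRNAs with the seed of miR-16-5p, the 5 nearest by level, 3 comparison groups and the marker lists. Members and lists were chosen with earlier results of these data known. Other scalings, minimums, pseudocounts, folds and member rules were tried. Tests were checked on simulated data. Python 3.11.15 with numpy 2.4.6, pandas 2.3.3, scipy 1.17.1 and matplotlib 3.10.9 was used, and R 4.3.3 with edgeR 4.0.16 (TMM) and DESeq2 1.42.0 for scaling factors only. Sequences came from RefSeq and host genes from GENCODE vM21.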

Additional observations from a re-analysis of the deposited data

How the results depend on the processing

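No paired analysis was possible because a pair of single libraries has no replicate numbers. The number of members reduced past 1.5-fold was 4, and became 2 with DESeq2 size factors, 2 at a fold of 2, 2 among miRNAs with the seed of miR-16-5p and 10 with raw reads and 1 common total, and was 3 or 4 under the other alternatives. The number raised was 0, and became 1 with no minimum (miR-497a-3p, 1 read in each library) and 1 among miRNAs with the seed (miR-322-5p). Given totals times TMM factors, 2 members were higher by the exact binomial test, in place of 0, and 3 were lower in place of 4. Past 1.5-fold with TMM, 23.9% of all miRNAs were raised, in place of 15.8%, and 32.5% reduced, in place of 41.5%. The shares of all miRNAs by the test with TMM factors and at a fold of 2 are not given, so the member counts there are not set against them. The summed log2 ratio of -0.48 became -0.42 relative to the summed miRNA reads, -0.40 without the 10 most abundant miRNAs, -0.23 by the median ratio, -0.27 by TMM, -0.20 by DESeq2, -2.20 by raw reads, -0.43 without the most abundant member and -0.40 for the seed.

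Of 80 recomputed log2 ratios of members, 13 changed sign. By the median ratio, miR-15b-5p was at 0.15, miR-16-1-3p at 0.14, miR-16-2-3p at 0.0202 and miR-195a-3p at 0.17. By TMM, miR-15b-5p was at 0.12, miR-16-1-3p at 0.11 and miR-195a-3p at 0.14. By DESeq2, miR-15b-5p was at 0.18, miR-16-1-3p at 0.17, miR-16-2-3p at 0.0486 and miR-195a-3p at 0.20. Without the 10 most abundant miRNAs, miR-195a-3p was at 0.0016, and with raw reads miR-15a-5p was at -1.65. A change of scaling shifts each member by nearly the same amount, so those near zero change sign. The 5p shares kept their direction and their side of the threshold under their alternatives. The change in the ratio of mature forms from Dleu2 to those from Smc4 depended on the forms compared. Its interval held 1 for the miR-16 3p forms (1.09) and for miR-15a-3p to miR-15b-3p (0.677), which lay on the other side of 1. The interval did not hold 1 for miR-15a-5p to miR-15b-5p (1.12). The 3p forms with under 200 reads limit what can be read from them.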
